A study of Homo sapiens with 6 samples.

Results

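Expression of cholesterol and fatty acid synthesis genes was examined in PA1, an established cell line from a human ovarian teratocarcinoma, grown without attachment after reduction of the transcription factor SOX2. The 31 genes are enzymes and regulators of lipid synthesis that are classed as under control of the sterol regulatory element-binding proteins (SREBPs). They are a list of names, looked up in a table of 59653 gene symbols, and all 31 were found in it. All 31 also passed the filter on low counts that left 17592 genes for testing.

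Each of the 6 mRNA sequencing libraries came from PA1 cells whose genotype is labelled wildtype. In 3 libraries the cells had received a negative control small interfering RNA (siRNA), and in the other 3 siRNA against SOX2. The design text names 2 SOX2 siRNAs and does not say whether they were pooled or how they were spread over the libraries. All cells were transfected while adherent, moved after 24 h to plates whose coating prevents attachment, and lysed after another 72 h. The labels do not say that libraries of a group came from separate cultures, so p-values measure the spread between these libraries, which may be technical.

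Depth ran from 25152313 to 32753184 counts per library, at which 3 counts equal 0.0909 to 0.120 CPM (counts scaled by library size). SOX2 stood at 245, 265 and 256 CPM in control replicates 1 to 3 and at 51.8, 54.9 and 50.6 CPM in SOX2 siRNA replicates 1 to 3, a log2 fold change of -2.28 (SE 0.0437; edgeR adjusted p = 5.97e-16). Of 10 embryonal cell markers, 9 were above 10 counts in at least 1 library, with POU5F1 at 7001 to 10669 counts, and TDGF1 had 3 counts at most. Of the 9 tested, 4 were called higher: LIN28A, LIN28B, DNMT3B and POU5F1 (log2 fold changes of 0.70, 0.59, 0.40 and 0.17). PODXL was called lower (-0.97), and the other 4 were not called. The 4 adipocyte markers had 4 counts at most, and of the 4 hepatocyte markers TTR had 1 at most and ALB 2 to 68. The 6 fibroblast markers summed to 396 to 450 CPM in control and 578 to 624 CPM in SOX2 siRNA libraries. PDGFRB, COL1A1 and THY1 were called higher (log2 fold changes of 1.89, 0.34 and 0.19). COL1A2 (-0.12; edgeR adjusted p = 0.225) and LUM (0.52; edgeR adjusted p = 0.114) were not called, and DCN had 4 counts at most. Of 5 leukocyte markers, CD3E had 1 count at most and LYZ 48 to 542. The part of these shifts in the lipid gene results was not tested. In bulk RNA, fewer cells of a type and less RNA per cell cannot be told apart.

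Cells make cholesterol from acetyl-CoA through mevalonate, squalene and lanosterol, and make fatty acids from the same precursor. SREBPs are membrane-bound transcription factors: when sterols are low, the escort protein SCAP carries them from the endoplasmic reticulum to the Golgi, where they are cut, and the released part enters the nucleus and switches on both pathways. When sterols are plentiful, INSIG proteins hold SCAP and SREBP back. SREBP-2 acts mainly on the cholesterol pathway and SREBP-1 mainly on fatty acid synthesis.

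SREBPs bind DNA at sterol regulatory elements and at a kind of E-box, usually beside boxes for the factor NF-Y. Promoter windows from RefSeq (GRCh38.p14), reaching from 250 bases before to 50 bases after a gene's start, were found for 27 of the 31 genes. ACAT2, FASN, SQLE and FDFT1 had none. Searched on both strands, the sterol regulatory element core CACNCCAC occurred in 6 of the 27 genes and in 7.05% of all 27305 symbols with a window. Those 6 were INSIG1, IDI1, SCD, SC5D, ACACA and SREBF2. Its longer form TCACNCCAC, which contains the core, occurred in 1 gene (SREBF2) and in 1.39% of all symbols. The E-box form TCACNTGA occurred in INSIG1 and EBP and in 4.65% of all symbols, and the NF-Y box CCAAT in 20 of the 27 genes and 39.7% of all symbols. The stretches below belong to SREBF2, the SREBP-2 gene itself, to INSIG1, the regulator that rose most, and to STARD4, the member that fell most. They lie at chr22:41832945-41833044 on the plus strand, chr7:155297811-155297840 on the plus strand and chr5:111512616-111512715 on the minus strand, and begin at positions -160, -67 and -180, where -1 is the base before the start. Each is written 5′ to 3′ with matches to the 4 motifs in capitals.
SREBF2: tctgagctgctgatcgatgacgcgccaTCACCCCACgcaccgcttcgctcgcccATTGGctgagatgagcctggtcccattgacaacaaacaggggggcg
INSIG1: gccgggcaggcTCACGTGAtgcgggccccg
STARD4: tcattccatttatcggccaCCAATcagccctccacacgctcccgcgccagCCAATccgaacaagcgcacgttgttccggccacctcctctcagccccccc
The SREBF2 stretch holds the long sterol regulatory element, with an NF-Y box on the opposite strand after it. In INSIG1 the capitals mark the E-box form. The INSIG1 window also holds the core at -208 to -201 and an NF-Y box at -170 to -166, outside the printed stretch. In STARD4 the capitals mark a pair of NF-Y boxes, with no match to the sterol regulatory element core between them. Only the exact letters were searched. A match describes the letters in this window and does not show binding.

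After SOX2 siRNA, 8 of the 31 genes rose and 4 fell by edgeR's quasi-likelihood test at an adjusted p under 0.05, and 19 did not pass. The 12 called genes are 38.7% of the members, beside 28.2% of all tested genes. In the tested genes at large 14.8% were called higher and 13.4% lower. Lipid synthesis genes are well expressed, and among the 9325 tested genes at least as abundant as the lowest member 36.3% were called, so the members' share lies near that background. The changes were small: FADS1 rose by 33.5%, STARD4 fell by 23.1%, and 0 of the 31 members were called with at least a 1.5-fold change. Such a call was made for 6.93% of all tested genes and for 330 of the 9325 genes at least as abundant as the lowest member. The median absolute log2 fold change was 0.107 over the members and 0.0987 over those 9325 genes. The median log2 fold change was 0.03 over the members, -0.00085 over all tested genes and 0.0142 over those 9325 genes. Control and SOX2 siRNA libraries did not overlap for 17 of the 31 members, beside 41.8% of all tested genes and 4603 of those 9325 genes. Summed over the 31 genes, expression was 4776, 4697 and 4680 CPM in control replicates 1 to 3 and 4732, 4769 and 4910 CPM in SOX2 siRNA replicates 1 to 3. The groups overlapped in this sum.

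**Figure D1:**
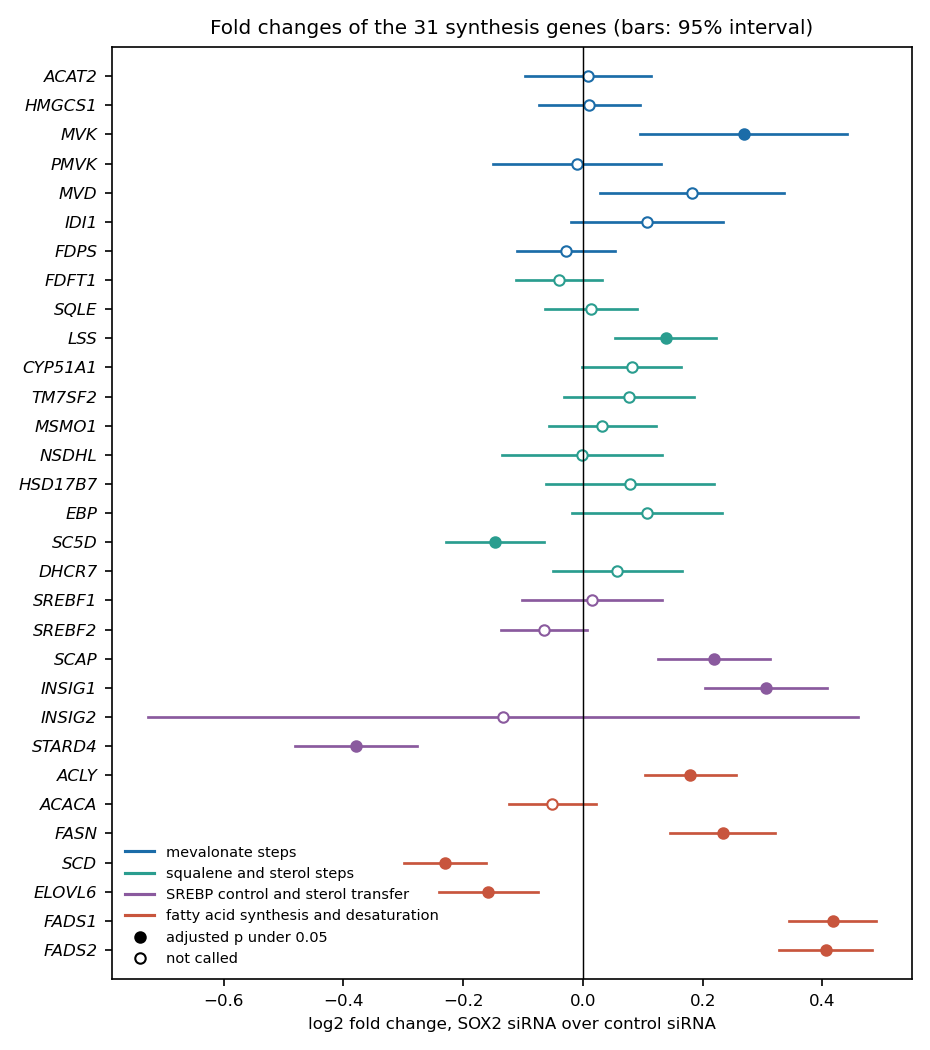
Log2 fold change of each of the 31 genes (x axis, SOX2 siRNA over control siRNA, 3 libraries each) with its 95% interval from the edgeR fit, coloured by role; filled points have an adjusted p under 0.05. FADS1 and FADS2 lie farthest to the right at 0.42 and 0.41, STARD4 farthest to the left at -0.38, and INSIG2 has the widest interval.

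**Figure D2:**
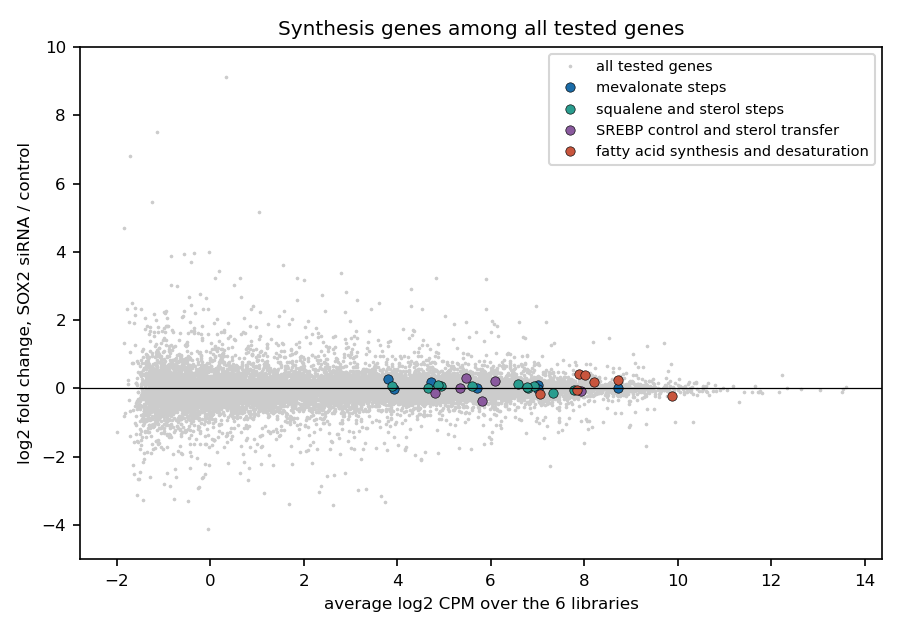
Log2 fold change (y axis) against average log2 CPM (x axis) for the 17592 tested genes in grey, with the 31 lipid synthesis genes coloured by role. The lipid genes lie between -0.38 and 0.42, at an average log2 CPM between that of MVK and that of SCD.

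The levels of the genes within a pathway differed widely. Per kilobase of exon (the merged exons of GENCODE 29, which overstates the length of genes with rare long transcripts), the most abundant member in control libraries was SCD at a mean of 189 CPM per kb, followed by HMGCS1 at 89.5, ACLY at 53.5, FDFT1 at 42.8 and FASN at 41.5. The lowest were MVK at 1.93, HSD17B7 at 3.02 and SREBF1 at 5.04 CPM per kb. SREBF2 stood at 33.02 CPM per kb in control libraries.

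In the mevalonate steps, from the condensation of acetyl-CoA to farnesyl diphosphate, 1 of 7 genes was called (14.3%, beside 28.2% of all tested genes). MVK, mevalonate kinase, at chr12:109573255-109598117 (GENCODE 29, GRCh38), had 14.0, 11.6 and 11.9 CPM in control replicates 1 to 3 and 15.2, 14.2 and 15.9 CPM in SOX2 siRNA replicates 1 to 3. It rose by 20.5% (log2 fold change 0.27, SE 0.0820; edgeR adjusted p = 0.0206), and the groups did not overlap, though control replicate 1 came close to the SOX2 siRNA libraries. The call was lost in 4 of 14 alternative fits: without control replicate 2 or 3, without SOX2 siRNA replicate 3, and with DESeq2 (adjusted p = 0.102, 0.0941, 0.0722 and 0.0619). MVK exons overlap 306 bases of MMAB on the opposite strand, and use of strand in counting is not given in the sources used here.

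HMGCS1, which makes HMG-CoA and is a textbook SREBP-2 target, stood at 424, 423 and 416 CPM in control replicates 1 to 3. In SOX2 siRNA replicates 1 to 3 it stood at 404, 416 and 452 CPM. The groups overlapped, the log2 fold change was 0.01 (SE 0.0398; edgeR adjusted p = 0.884), and the 95% interval ran from 0.950 to 1.07 times the control level. MVD, mevalonate diphosphate decarboxylase, had 27.03, 23.3 and 23.3 CPM in control and 29.1, 25.4 and 29.4 CPM in SOX2 siRNA replicates 1 to 3. Its log2 fold change of 0.18 did not pass (SE 0.0720; edgeR adjusted p = 0.0733), and passed in 4 of 14 alternative fits. With single libraries left out its adjusted p ranged from 0.0170 (without control replicate 1) to 0.248 (without control replicate 2). IDI1, the isomerase that provides dimethylallyl diphosphate, had a log2 fold change of 0.11 (edgeR adjusted p = 0.204), with a range of 0.03 (0.714, without SOX2 siRNA replicate 3) to 0.15 (0.0451, without SOX2 siRNA replicate 1) when single libraries were left out. The thiolase ACAT2, the kinase PMVK and the farnesyl diphosphate synthase FDPS had log2 fold changes of 0.01, -0.01 and -0.03. ACAT2 exons overlap those of TCP1 and SOD2 on the opposite strand, so its counts are uncertain.

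Of the 11 genes from squalene to cholesterol, 1 rose and 1 fell (18.2% called, beside 28.2% of all tested genes). LSS, lanosterol synthase, which closes the sterol rings, had 94.6, 88.7 and 91.1 CPM in control and 102, 98.3 and 102 CPM in SOX2 siRNA replicates 1 to 3. There was no overlap between groups, and the rise was 10.04% (log2 fold change 0.14, SE 0.0396; edgeR adjusted p = 0.0145; 0.0636 and 0.0533 without control replicate 2 or 3). SC5D, the sterol C5-desaturase of a late step, had 167, 174 and 171 CPM in control and 147, 157 and 159 CPM in SOX2 siRNA replicates 1 to 3. It fell by 9.68% (log2 fold change -0.15, SE 0.0390; edgeR adjusted p = 0.00892), with every SOX2 siRNA library below every control library.

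SQLE, squalene epoxidase, a rate-limiting enzyme of this arm, stood at 110, 111 and 110 CPM in control and 109, 114 and 112 CPM in SOX2 siRNA replicates 1 to 3. The groups overlapped, and the 95% interval of its fold change, 0.957 to 1.07, stayed closest to no change among the genes not called. The other 8 genes of this arm had log2 fold changes from -0.04 for FDFT1, squalene synthase, to 0.11 for EBP, the sterol isomerase. Between them lay NSDHL (-0.0015), MSMO1 (0.03), DHCR7 (0.06), TM7SF2 (0.08), HSD17B7 (0.08) and CYP51A1 (0.08), which demethylate, reduce or desaturate the sterol. HSD17B7 has an expressed copy, HSD17B7P2, at 127 to 158 counts per library, and CYP51A1 shares 79.4% of its exon bases with AC000120.2 on the same strand, a gene given a mean of 28.0 counts, so both are uncertain.

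Taken as 18 enzymes from acetyl-CoA to cholesterol, 3 were called (16.7%, beside 28.2% of all tested genes), with a median log2 fold change of 0.05. A different set of 18 is the members not called over the whole list, leaving out INSIG2, described below. It includes SREBF1, SREBF2 and ACACA and lacks the called enzymes MVK, LSS and SC5D. The 95% intervals of this set lay between 0.901 and 1.26 times the control level. The widest upward reach in this set was that of MVD, whose interval began at 1.02, followed by IDI1 with an upper bound of 1.18.

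**Figure D3:**
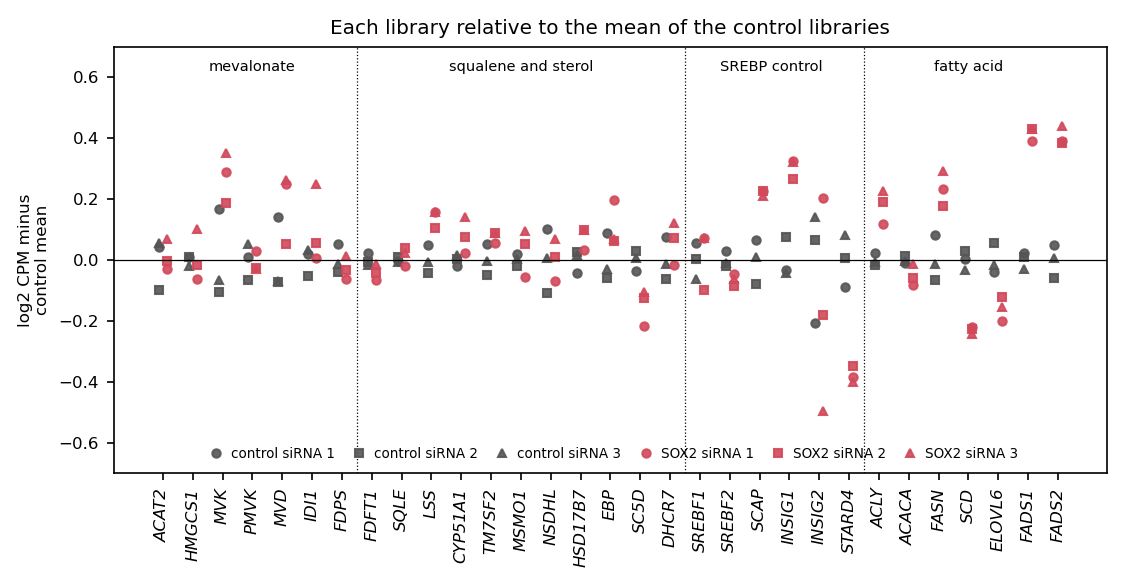
Log2 CPM of each library minus the mean of the 3 control libraries (y axis) for the 31 genes in pathway order; grey points are control and red points SOX2 siRNA libraries, with circles, squares and triangles for replicates 1, 2 and 3. The red points stand apart from the grey ones for FADS1, FADS2, INSIG1, SCAP, STARD4 and SCD, and mix with them for HMGCS1, SQLE and SREBF1.

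Among the genes that control SREBPs, neither SREBP gene was called. SREBF2, encoding SREBP-2, stood at 255, 246 and 248 CPM in control and 242, 235 and 239 CPM in SOX2 siRNA replicates 1 to 3. All 3 SOX2 siRNA libraries lay below the control libraries, by a log2 fold change of -0.06 that did not pass (SE 0.0338; edgeR adjusted p = 0.176). SREBF1, encoding both forms of SREBP-1, stood at 42.1, 40.6 and 38.7 CPM in control and 42.5, 37.8 and 42.5 CPM in SOX2 siRNA replicates 1 to 3. Its groups overlapped (log2 fold change 0.02, SE 0.0552; edgeR adjusted p = 0.873), and gene-level counts do not separate the SREBP-1a and SREBP-1c transcripts.

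The escort and its anchor both rose. SCAP, at chr3:47413694-47477126, had 66.4, 60.1 and 63.9 CPM in control and 74.2, 74.2 and 73.4 CPM in SOX2 siRNA replicates 1 to 3. The groups were well apart, with a rise of 16.4% (log2 fold change 0.22, SE 0.0442; edgeR adjusted p = 0.00110). INSIG1, at chr7:155297776-155310235, is the anchor whose own transcription depends on SREBP. It had 39.0, 42.0 and 38.7 CPM in control and 50.02, 47.9 and 49.9 CPM in SOX2 siRNA replicates 1 to 3, a rise of 23.6% (log2 fold change 0.31, SE 0.0482; edgeR adjusted p = 1.14e-04). Its promoter stretch with the E-box form is printed above. EBP, the other member with that form, had a log2 fold change of 0.11 (edgeR adjusted p = 0.201).

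STARD4, which shuttles cholesterol between membranes in the cytosol, fell most of the 31 genes. At chr5:111496033-111512590, it had 60.3, 64.5 and 67.9 CPM in control and 49.1, 50.3 and 48.6 CPM in SOX2 siRNA replicates 1 to 3. There was no overlap between groups, and it fell by 23.1% (log2 fold change -0.38, SE 0.0485; edgeR adjusted p = 1.20e-05). Its divergent partner STARD4-AS1, which overlaps 124 exon bases and was added after the values were seen, had 33 to 43 counts in control and 23 to 35 in SOX2 siRNA libraries (log2 fold change -0.50; edgeR adjusted p = 0.134).

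INSIG2, the second anchor, had 25.3, 30.5 and 32.2 CPM in control replicates 1 to 3. In SOX2 siRNA replicates 1 to 3 it had 33.6, 25.8 and 20.7 CPM, so replicate 1 lay above and replicate 3 below every control library. Its log2 fold change was -0.13 with an SE of 0.220 (edgeR adjusted p = 0.731), and the 95% interval, 0.605 to 1.38, left its direction undetermined. A list of 10 hypoxia-inducible genes, chosen after this spread was seen, varied alongside it. The median deviation of that list from the control mean was 0.48, -0.10 and -0.72 on the log2 scale in SOX2 siRNA replicates 1 to 3 and -0.14, -0.03 and 0.17 in control replicates 1 to 3. INSIG2 and this list had the same order within each group. The 18 sterol enzymes had median deviations of -0.01, 0.05 and 0.09 in SOX2 siRNA and 0.03, -0.05 and -0.00449 in control replicates 1 to 3. Of these 18 enzymes, 13 had their lowest SOX2 siRNA value in replicate 1 and 14 their highest in replicate 3. What the hypoxia-inducible genes contribute to these spreads was not tested.

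**Figure D4:**
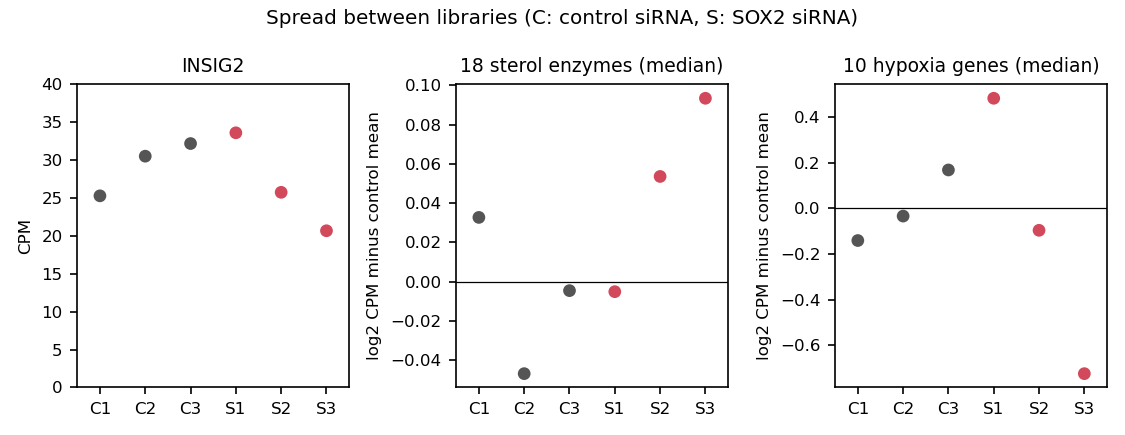
Level of INSIG2 in CPM (left), and the median over genes of log2 CPM minus the control mean for the 18 sterol enzymes (middle) and for 10 hypoxia-inducible genes (right), with 1 point per library; C1 to C3 are control and S1 to S3 SOX2 siRNA replicates. INSIG2 and the hypoxia-inducible genes are highest in S1 and lowest in S3, and the sterol enzymes are highest in S3; the y axes differ.

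In fatty acid synthesis and desaturation 6 of 7 genes were called (85.7%), 4 higher and 2 lower, beside 28.2% of all tested genes. Among the 9325 tested genes at least as abundant as the lowest member 36.3% were called. The median control level was 234 CPM for the 7 fatty acid genes and 50.2 CPM for those 9325 genes. All 6 calls were made in each of the 14 alternative fits. FADS1 and FADS2, the delta-5 and delta-6 desaturases that make long polyunsaturated fatty acids from dietary precursors, had the largest rises of the 31 genes. FADS1 had 207, 205 and 199 CPM in control and 267, 274 and 274 CPM in SOX2 siRNA replicates 1 to 3. FADS2 had 232, 215 and 225 CPM in control and 294, 292 and 304 CPM in SOX2 siRNA replicates 1 to 3. In both genes every SOX2 siRNA library lay far above every control library. The rises were 33.5% for FADS1 (log2 fold change 0.42, SE 0.0341; edgeR adjusted p = 5.05e-08) and 32.4% for FADS2 (0.41, SE 0.0368; edgeR adjusted p = 1.99e-07).

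FADS1 (chr11:61799625-61829318, minus strand) and FADS2 (chr11:61792980-61867354, plus strand) lie on opposite strands and overlap. RefSeq places the FADS2 starts 599 and 800 bases inside FADS1, and in GENCODE 29 they share 490 exon bases, 4.79% of the FADS1 and 4.44% of the FADS2 exons. With strand use unknown, reads from the shared bases could go to either gene. Of 6 neighbouring genes, chosen after both rises were seen, 0 were called higher and 2 lower. Over all tested genes 14.8% were called higher and 13.4% lower. FADS3, the third family member at chr11:61873519-61892051, had 13.7, 11.9 and 13.3 CPM in control and 11.4, 9.49 and 9.91 CPM in SOX2 siRNA replicates 1 to 3 (log2 fold change -0.34, SE 0.0863; edgeR adjusted p = 0.00637). MYRF had a log2 fold change of -0.19 (edgeR adjusted p = 0.0161). TMEM258, FEN1, RAB3IL1 and BEST1 did not pass, at 0.13, -0.02, -0.02 and -0.03.

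ACLY, which makes cytosolic acetyl-CoA from citrate and so feeds both pathways, had 284, 276 and 278 CPM in control and 303, 319 and 327 CPM in SOX2 siRNA replicates 1 to 3. It rose by 13.2% (log2 fold change 0.18, SE 0.0360; edgeR adjusted p = 0.00109) without overlap of the groups. FASN, the fatty acid synthase that builds palmitate, had 410.5, 371 and 384 CPM in control and 456, 439 and 475 CPM in SOX2 siRNA replicates 1 to 3. Its rise was 17.6% (log2 fold change 0.23, SE 0.0415; edgeR adjusted p = 3.97e-04), again without overlap. ACACA, the acetyl-CoA carboxylase between these enzymes, did not pass, with 232, 236 and 233 CPM in control and 221, 224 and 231 CPM in SOX2 siRNA replicates 1 to 3 (log2 fold change -0.05; edgeR adjusted p = 0.300).

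Both enzymes that act next on palmitate fell. SCD, the delta-9 desaturase that makes monounsaturated fatty acids, at chr10:100347124-100364834, had 1017, 1037 and 991 CPM in control and 871, 867 and 858 CPM in SOX2 siRNA replicates 1 to 3. It fell by 14.7% (log2 fold change -0.23, SE 0.0325; edgeR adjusted p = 3.60e-05), and the groups were far apart. ELOVL6, which lengthens palmitate to stearate, had 137, 146 and 139 CPM in control and 122, 129 and 126 CPM in SOX2 siRNA replicates 1 to 3. It fell by 10.4% (log2 fold change -0.16, SE 0.0391; edgeR adjusted p = 0.00549). The summed level of the 7 fatty acid genes was 2518, 2486 and 2450.02 CPM in control and 2534, 2545 and 2596 CPM in SOX2 siRNA replicates 1 to 3, so the groups did not overlap in the sum, though SCD, its largest part, fell.

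**Figure D5:**
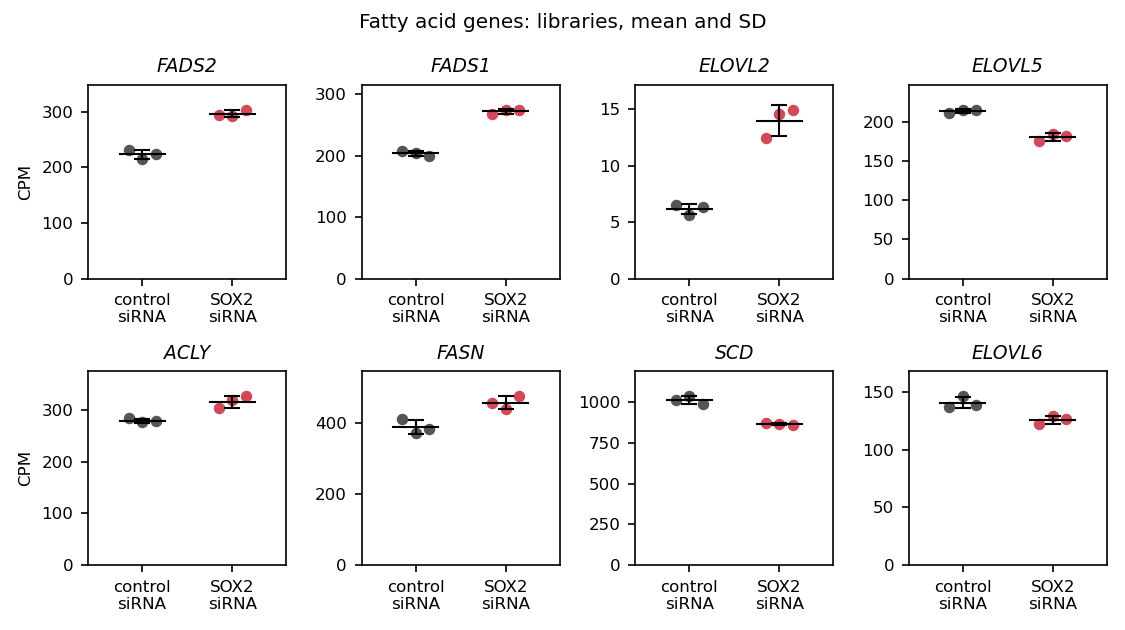
CPM (y axis, from 0; scales differ between panels) of 8 fatty acid genes in control and SOX2 siRNA libraries; points are libraries, horizontal lines the mean of 3 and error bars the SD. FADS2, FADS1, ELOVL2, ACLY and FASN are higher and ELOVL5, SCD and ELOVL6 lower after SOX2 siRNA, with no overlap between the groups.

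Beyond the 31 genes, 7 lists of related genes were examined. Their counts stand beside 14.8% of all tested genes called higher and 13.4% called lower. In fatty acid supply, activation and elongation 8 of 20 tested genes were called, 6 higher and 2 lower (median log2 fold change 0.04). ELOVL2, which elongates long polyunsaturated fatty acids, had 6.48, 5.63 and 6.30 CPM in control and 12.4, 14.6 and 14.9 CPM in SOX2 siRNA replicates 1 to 3. Its log2 fold change was 1.18 (SE 0.0938; edgeR adjusted p = 3.51e-08), larger than that of any of the 31 genes. HACD2, a dehydratase of the elongation cycle, and ELOVL1, an elongase of very long chains, had log2 fold changes of 0.52 (edgeR adjusted p = 2.53e-08) and 0.50 (2.72e-05). ELOVL5, the other polyunsaturated elongase, named after its values were seen, fell and averaged 214 ± 2.43 CPM with control siRNA and 181 ± 5.08 CPM under SOX2 siRNA (SD, n = 3; log2 fold change -0.24; edgeR adjusted p = 5.08e-05).

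In SREBP processing and turnover 6 of 11 genes were called (54.5%, beside 28.2% of all tested genes), 5 higher and 1 lower (median 0.05). The count was 3 without control replicate 2, control replicate 3 or SOX2 siRNA replicate 2. MBTPS1, the Golgi site-1 protease that first cuts SREBPs, had 115, 112 and 110 CPM in control and 142, 143 and 138 CPM in SOX2 siRNA replicates 1 to 3. The groups were far apart (log2 fold change 0.33, SE 0.0368; edgeR adjusted p = 2.48e-06). RNF139, a ubiquitin ligase of the endoplasmic reticulum, had a log2 fold change of 0.18 (edgeR adjusted p = 0.00359), and ERLIN2, a membrane protein that takes part in degradation there, of -0.26 (8.21e-05). MBTPS2, the site-2 protease, did not pass (0.03; edgeR adjusted p = 0.752).

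In cholesterol uptake and intracellular handling 3 genes rose and 1 fell of 12 (median 0.08), and 2 were called without control replicate 1. GRAMD1B, which carries cholesterol from the plasma membrane to the endoplasmic reticulum, fell and averaged 24.5 ± 1.39 CPM with control siRNA and 16.6 ± 0.570 CPM under SOX2 siRNA (SD, n = 3; log2 fold change -0.57; edgeR adjusted p = 2.39e-06). NPC2, which takes cholesterol out of lysosomes, rose with a log2 fold change of 0.25 (edgeR adjusted p = 2.12e-04). VLDLR, a lipoprotein receptor, had 25.03, 26.3 and 25.7 CPM in control and 42.1, 35.6 and 31.2 CPM in SOX2 siRNA replicates 1 to 3 (log2 fold change 0.50; edgeR adjusted p = 0.00714, and 0.0515 without control replicate 1). Of 7 tested liver X receptor targets and export genes, 0 rose and 2 fell (median 0.01), with 0 called without control replicate 2 and 1 without any other single library. ABCA1, the cholesterol exporter, had a log2 fold change of -0.38 (edgeR adjusted p = 0.00656, and 0.0551 without control replicate 2), and MYLIP, a ligase for lipoprotein receptors, of -0.16 (edgeR adjusted p = 0.0424), a call lost in 8 of 14 alternative fits.

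In glycerolipid synthesis and lipid droplets 4 of 15 rose, among them LPIN1 (0.49), AGPAT1 (0.20) and MGLL (1.05), whose groups overlapped and which averaged 0.730 ± 0.208 CPM with control siRNA and 1.54 ± 0.546 CPM under SOX2 siRNA (SD, n = 3). Of this list 2 were called without control replicate 2, control replicate 3 or SOX2 siRNA replicate 3. In fatty acid oxidation 3 of 18 rose, PPARA (0.46), ACADVL (0.17) and HADHB (0.15), and 6 were called with upper-quartile scaling. In the non-sterol isoprenoid branch 1 of 12 rose, COQ3 (0.24), and 1 fell, PGGT1B (-0.20), with 1 called without control replicate 2, control replicate 3 or SOX2 siRNA replicate 2 and with DESeq2. Of these, the calls of COQ3, MGLL and HADHB were lost in 5, 3 and 2 of the 14 alternative fits. Over the 7 lists 29 of 95 tested genes were called (30.5%), close to the 28.2% of all tested genes, and 19 without control replicate 2.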

How the data were processed

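mRNA was sequenced in 6 PA1 libraries. The deposited table holds raw counts per gene symbol, 1 column per library. The submitters' processing notes name bcl2fastq 2.20.0, STAR 2.7.3a, Salmon 0.14.1, DESeq2 1.28.1 and GRCh38.p13 without roles; the counting program, annotation and strand setting are not given in the sources used here. Columns were matched to libraries by the identifier in each description, and groups came from the titles.

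Genes were filtered with filterByExpr (minimum count 10), scaled by TMM and tested across all genes with edgeR 4.0.16 (glmQLFit, robust, and glmQLFTest; R 4.3.3), with p-values adjusted by Benjamini-Hochberg across every gene tested and called under 0.05. CPM use the scaled library sizes, except the fibroblast marker sums, which use total counts. SEs are the absolute log2 fold change divided by the square root of this fit's F statistic. The 95% intervals add a t quantile times the SE on each side. Deviations use log2 CPM with a prior count of 2. Total counts lie between 25152313 and 32753184 per library, and floors of 3 counts cover counting error only. No list was given a test of its own.

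Alternatives were other scalings, filters and tools (limma-voom from limma 3.58.1, DESeq2 1.42.0), each replicate left out and the replicate block. Members, pathway lists and alternatives were chosen with earlier results of these data known; the abundance-limited background, the hypoxia-inducible list, the genes beside FADS1 and FADS2, STARD4-AS1 and ELOVL5 were added after the values were seen. Outside the members, up to 3 called genes per list with the smallest p are named. Positions, exon lengths and overlaps are from GENCODE 29 (GRCh38), which may differ from the authors' annotation; all 31 members matched by symbol. The procedure was tested on simulated data.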

Additional observations from a re-analysis of the deposited data

How the results depend on the processing

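Of 434 values of single members under 14 alternative fits, 404 kept their direction and their side of the threshold, 6 lost the call, 6 gained one and 18 changed sign. Of the 12 called members 10 were called in every alternative, the exceptions being MVK and LSS; 17 of the 19 others were called in none, the exceptions being MVD and IDI1. Members called ranged from 10 to 14 and the members' median log2 fold change from 0.0123 (upper-quartile scaling) to 0.0576; the 4 falls were called in each fit. All genes called ranged from 3760 to 5212. SOX2 lay between -2.32 and -2.25. Upper-quartile scaling gave 2311 rises and 2734 falls over all genes, beside 2599 and 2365, as the median of all genes moved to -0.0211.

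Sign changes were confined to members that were not called. With upper-quartile scaling HMGCS1 was at -0.00996, SQLE at -0.00649, ACAT2 at -0.0116 and SREBF1 at -0.00431, and NSDHL was at 0.00480 with no filter beyond 1 count. With one replicate left out, values ranged from -0.0407 to 0.0411 for HMGCS1, -0.0397 to 0.0169 for PMVK, -0.00198 to 0.0269 for SQLE, -0.00260 to 0.0715 for MSMO1, -0.0518 to 0.0538 for NSDHL, -0.0370 to 0.0363 for ACAT2, -0.334 to 0.0166 for INSIG2 and -0.0158 to 0.0683 for SREBF1. Calls over the 7 related lists, 29, ranged from 19 (without control replicate 2) to 26 in these fits; the cause was not tested beyond the smaller number of libraries.

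The titles number libraries 1 to 3 in both groups without saying what a number marks, and same-numbered libraries correlated at 0.0868, -0.0377 and -0.0311 in their deviations across genes. With the replicate block 13 members were called, MVD being the addition, and 5177 genes in all; NSDHL was at 0.00100.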
